A study of Mus musculus with 10 samples.

Results

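The developmental transcription factor families are sets of related DNA-binding proteins, and of proteins that bind them, which direct neural fate and differentiation. They were taken here as the genes of the rate table whose symbols begin with Sox, Hox, Lhx, Pou, Neurod, Neurog, Klf, Fox, Bhlhe, Hes, Hey, Id, Nkx, Zic, Dlx or Tcf and a member number or letter, or name a homeobox gene of the sine oculis family. Of 8590 genes in the table, 58 met that rule. There were 12 Fox genes, 10 Klf genes, 10 Sox genes, 5 Hes, Hey or Bhlhe genes, 4 Pou genes, 3 Dlx genes, 3 Id genes, 2 E proteins (Tcf3 and Tcf12) and 2 proneural genes (Neurod1 and Neurod6). Lhx6, Zic2, Tcf7l2 and Tcf20 were single members of their groups, and no Hox, Neurog, Nkx or sine oculis family gene was in the table. The rule also took in 3 non-coding RNAs named for neighbouring factors, Dlx1as, Dlx6os1 and Sox2ot, so that 55 of the 58 genes encode a protein. Tcf20 shares only its prefix with the other Tcf genes and is not a member of the E protein or Wnt families.

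The series measured RNA metabolism in mouse cortical neurons of strain FVB.129P2-Pde6b+ Tyrc-ch/AntJ, either wild type or Fmr1-KO. The labels give this same strain name for both genotypes and no sex. Fmr1 encodes FMRP, an RNA-binding protein that is lost in fragile X syndrome. Cells came from cortices at embryonic day 18 and were cultured for 14 days, and new RNA took up 5-ethynyluridine (5-EU, 200 µM), an altered uridine through which RNA can be biotinylated and pulled down. Each genotype had 1 library labelled for 20 min and 1 labelled for 60 min, and these 4 libraries carry all rates described below. The remaining 6 of the 10 samples were inputs and unlabelled pull-downs, for which the table gives no rate. The cultures were not sorted by cell type. The labels do not say whether the libraries came from separate cultures or animals, so p-values measure only the spread between these libraries, which may be technical. Within a genotype that spread also holds the difference between labelling times, unless time is part of the fit.

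The factors fall into classes with well-known roles. Sox proteins bend DNA through an HMG box, and among SoxB members Sox1 and Sox3 maintain neural progenitors while Sox21 counters them, SoxC members act in young neurons and SoxE members act in glia. Proneural bHLH proteins bind DNA as dimers with E proteins, Id proteins capture E proteins in dimers that cannot bind DNA, and Hes and Hey repressors act downstream of Notch. Many mRNAs for such regulators are known to be short-lived, and AU-rich words in the 3′ UTR are a common mark of unstable mRNAs.

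For each gene the table gives a synthesis rate (new RNA made), a processing rate (conversion of unspliced to spliced RNA) and a degradation rate (loss of spliced RNA). Their time unit is not stated, and the depth behind each rate is unknown. Dividing synthesis by degradation rate gives the RNA level that both imply. In wild type this quotient was the same at 20 and 60 min, within 0.001 log2 units, for 46 of 51 members (90.2%) and 7389 of 7914 genes (93.4%). In the knockout it was the same for 0 of 46 members and 16 of 5913 genes (0.271%). In wild type, synthesis and degradation rates of most genes thus differed by 1 fixed level per gene. Fmr1 itself had synthesis rates of 0.810 and 0.692 in wild type (20 and 60 min) but 2.06 and 1.56 in the libraries labelled Fmr1-KO, higher in both. Its degradation rates were 0.0774 and 0.0672 in wild type, and in the knockout 2.58 and 2.66. The level these imply was 10.5 and 10.3 in wild type, and in the knockout 0.800 and 0.586, lower in both libraries. The labels do not describe the knockout allele, so it is not known which part of the transcript these rates cover.

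The members were degraded faster than most genes, most clearly in wild type. The member medians of degradation rate were 0.259 (20 min) and 0.291 (60 min) in wild-type libraries, where all genes had 0.111 and 0.111. In the knockout they were 0.250 and 0.319, against 0.190 and 0.195 for all genes. The rate lay above the all-gene median for 42 and 43 of 51 members in the wild-type libraries, and for 32 and 31 of 47 members in the knockout libraries. Between genotypes the all-gene median was higher in the knockout, while the members' median stayed near the same value. The medians cover the genes with a rate in each library, which differ between genotypes. How much this adds to the difference was not tested. Synthesis rates were also above the typical gene, with member medians of 1.77 and 2.69 in wild type, and in the knockout 1.80 and 2.87, against 1.06, 1.02, 1.18 and 1.08 for all genes in the same order. These medians carry no test.

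**Figure D1:**
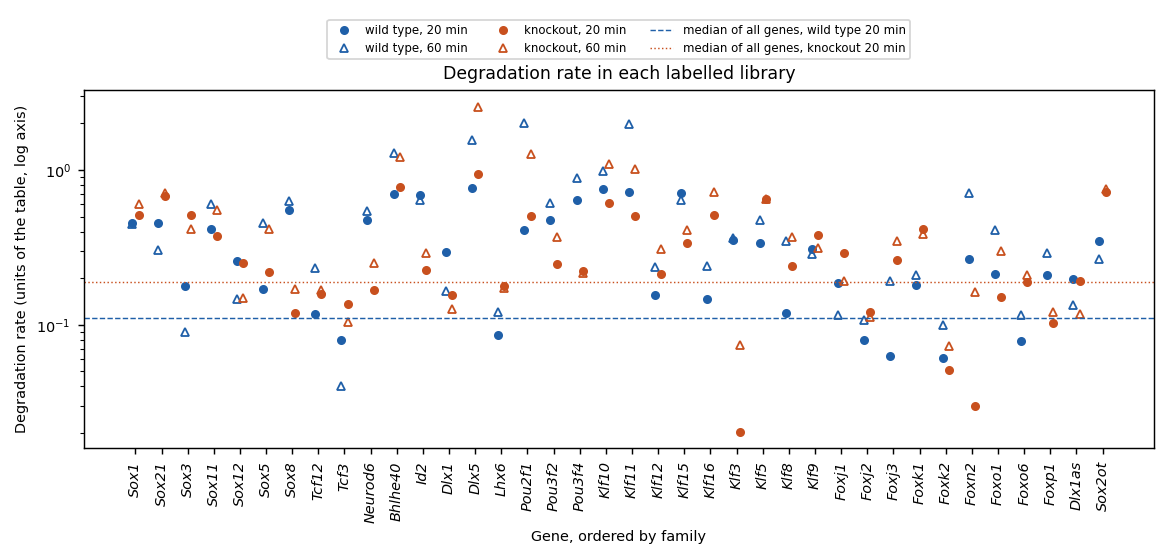
Degradation rate (log axis, units of the table) of each member with a rate in all 4 labelled libraries, without Klf6, whose 60 min wild-type value is off the scale. Circles are 20 min and triangles 60 min libraries, blue is wild type and orange is knockout, and the lines mark the all-gene medians of 0.111 (wild type, 20 min) and 0.190 (knockout, 20 min). Most members sit above the wild-type line, and Klf3, Foxn2, Sox8 and Pou3f4 drop in the knockout.

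Among the fastest-degraded mRNAs in wild type were those of the zinc finger factors Klf6, Klf10 and Klf11, of Bhlhe40 and of Dlx5, a homeobox factor of interneurons. Klf11 had degradation rates of 0.721 and 1.99 in wild type, and in the knockout 0.506 and 1.02. Klf10, a factor induced by growth signals and named after its values were seen, had 0.756 and 0.986 in wild type, and in the knockout 0.609 and 1.09. Dlx5 had 0.763 and 1.57 in wild type, and in the knockout 0.942 and 2.57, and its ranges overlapped between genotypes. Bhlhe40, a bHLH repressor induced by activity and by the circadian clock, had 0.702 and 1.28 in wild type, and in the knockout 0.777 and 1.21. For Klf6, a zinc finger factor, the table lists 2.03 in the 20 min wild-type library and 6621000 in the 60 min one, with a synthesis rate of 82560000 there. That library alone gives this extreme pair, since the knockout rates were 1.28 and 2.48. The table holds a like pair for Dlx2 in the 60 min knockout library, with a synthesis rate of 14800 and a degradation rate of 5978.

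Slow turnover, below the all-gene median in every library with a value, was found for the E protein gene Tcf3, the forkhead gene Foxk2 and Pou6f1, among others. Foxj2, with rates in all 4 libraries, also met this, as did Foxo4 and Tcf20 in wild type alone and Id4 and Zic2 in the knockout alone. Tcf3 had degradation rates of 0.0800 and 0.0403 in wild type, and in the knockout 0.135 and 0.103. Tcf12, the other E protein, was not as slow, with 0.118 and 0.233 in wild type, above the all-gene medians there, and in the knockout 0.159 and 0.168. Foxk2 had 0.0609 and 0.0995 in wild type, and in the knockout 0.0510 and 0.0731. Pou6f1 had 0.0484 and 0.0224 in wild type and 0.0258 in the 20 min knockout library, with no value in the other. The bHLH partners thus differed in turnover in wild type: Id2, an inhibitor of E proteins, had rates of 0.686 and 0.639, and Neurod6, a proneural factor of excitatory neurons, had 0.472 and 0.543, all above every E protein value.

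The sequences of 3′ UTRs were set beside these rates because the group is known for unstable mRNAs. The heptamer TATTTAT, written as DNA and holding within it the pentamer ATTTA, was searched on the transcript strand of 1 coding transcript per gene. It occurred in 28 of the 55 protein-coding members (50.9%) and in 31.6% of 8249 genes with an annotated 3′ UTR, but the members' 3′ UTRs were also longer, with a median of 1707 bases against 1194. The windows below, 9 bases on each side with the heptamer in capitals, are from the members with the fastest turnover in wild type that hold one and from Id2 and Sox8, which are described further on. All lie in 3′ UTR exons on GRCm38, at chr13:5868492-5868516 and chr13:5868945-5868969 (plus strand) for Klf6, chr12:24660913-24660937 (plus) for Klf11, chr15:38294922-38294946 (minus) for Klf10, chr12:25094357-25094381 and chr12:25094108-25094132 (minus) for Id2, and chr17:25566705-25566729 (minus) for Sox8.
Klf6 first site: tacgtctctTATTTATgccttgagg
Klf6 second site: caccggctgTATTTATtatgtaaca
Klf11: ttataaaaaTATTTATattgtgctc
Klf10: gtgtcttttTATTTATaggagtttt
Id2 first site: tgataccgtTATTTATgagagactt
Id2 second site: ctgtgtataTATTTATatataaata
Sox8: ttgaagacgTATTTATgttctgttg

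Among members the heptamer went with little difference in turnover. The median degradation rate in wild type was 0.277 for the 25 members with the heptamer and a rate, and 0.220 for the 23 without it. Over all genes it was 0.123 with and 0.102 without. In the knockout the members' medians were 0.301 with (23 genes) and 0.296 without (21 genes), and those of all genes were 0.188 and 0.200. Bhlhe40, Dlx5 and Hes1, all fast, have neither the heptamer nor the pentamer ATTTA in the transcript used. Across members, the density of ATTTA per kilobase and the degradation rate had a Spearman rho of 0.0092 in wild type (48 genes) and -0.088 in the knockout (44 genes), given as a description across genes. Over all genes it was 0.18 in wild type (7618 genes) and -0.039 in the knockout (5688 genes). Klf3 and Pou3f4, which fell in the knockout, also hold no heptamer.

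Some members have a rate in 1 genotype and none in the other. A degradation rate was listed in all 4 libraries for 39 of 58 members (67.2%, against 66.5% of all genes) and in wild type alone for 10 (17.2%, against 1546 of 8590 genes). It was listed in the knockout alone, in both libraries, for 7 members (12.1%), against 168 of 8590 genes (1.96%). For genes with Zfp symbols, a large family of zinc finger proteins, that count was 4 of 198 (2.02%). The other 2 members, Hey1 and Pou6f1, lacked a value in 1 knockout library. A missing value says only that no rate was listed, not that the gene was silent, and none of these shares was tested.

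The 7 members listed in the knockout alone were Sox9, Hes1, Hes5, Id4, Dlx2, Zic2 and Foxm1. They included factors of astrocytes and progenitors. Sox9, which specifies glia, had knockout synthesis rates of 14.0 and 16.7 and degradation rates of 0.451 and 0.554. Hes1, a Notch-induced repressor whose mRNA is known for rapid turnover, had synthesis rates of 4.87 and 10.9 and degradation rates of 1.26 and 3.07. Hes5, another Notch target, had synthesis rates of 4.20 and 6.91, and Id4, an inhibitor of E proteins in progenitors and astrocytes, had 2.18 and 2.71. Sox9 had the highest 20 min synthesis rate of the 7. Dlx2, a factor of interneuron progenitors, had a synthesis rate of 6.55 at 20 min. Sox9, Hes5, Zic2 and Foxm1 are named here after their values were seen.

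The 10 members listed in wild type alone were Neurod1, Tcf20, Id3, Hes6, Foxp4, Sox6, Sox10, Dlx6os1, Tcf7l2 and Foxo4. Neurod1, a proneural factor of excitatory neurons, had wild-type synthesis rates of 2.31 and 4.04. Tcf20, a chromatin-linked regulator, had 2.75 and 2.58. Id3, the sister inhibitor of Id2, had 1.64 and 1.58 and degradation rates of 0.770 and 0.743. Hes6, which counters Hes1, had synthesis rates of 1.99 and 1.40. Foxp4 had 1.12 and 0.845, and Sox6, a SoxD factor of interneurons, had 0.894 and 1.23. Foxo4 had the lowest synthesis rates of the 10, at 0.097 and 0.115. Sox10, a SoxE factor of oligodendrocytes, had 1.10 and 0.514, and Tcf7l2, a Wnt effector, had 0.233 and 0.734; both were named after their values were seen, as was Dlx6os1.

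**Figure D2:**
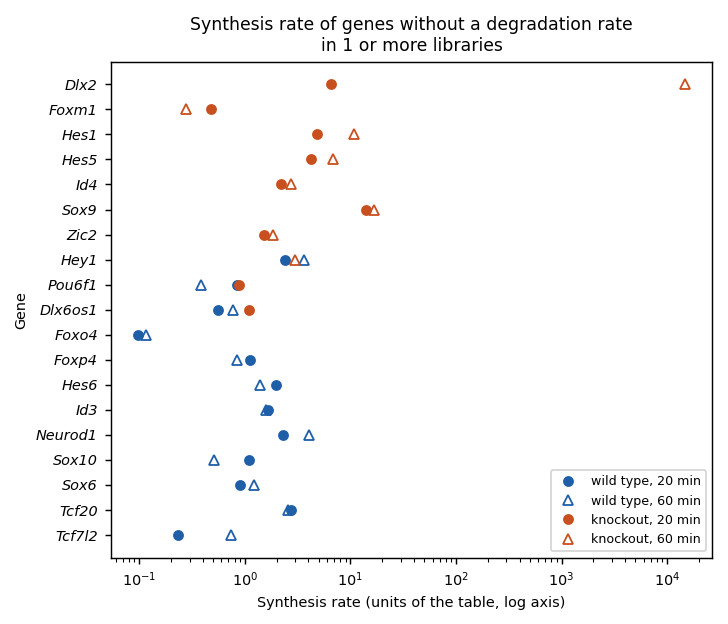
Synthesis rate (log axis, units of the table) of the 19 members that lack a degradation rate in 1 or more labelled libraries, with circles for 20 min and triangles for 60 min. From the top, 7 members have values in the knockout alone (orange), 2 in wild type and 1 knockout library, and 10 have a degradation rate in wild type alone (blue). Dlx6os1 has a knockout synthesis rate at 20 min but no degradation rate there.

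By the cell types in which the factors act, the listed genes split as follows. Of 14 glial and progenitor factors, 10 were in the table: Sox8, Sox21 and Klf15 in both genotypes, Sox10 and Id3 in wild type alone, Sox9, Id4, Hes1 and Hes5 in the knockout alone, and Hey1 with 1 knockout value missing. Of 10 pallial excitatory factors 4 were in the table, with Neurod6, Foxp1 and Pou3f2 in both and Neurod1 in wild type alone. Of 7 interneuron factors 5 were in the table, with Dlx1, Dlx5 and Lhx6 in both, Sox6 in wild type alone and Dlx2 in the knockout alone. Over all genes, 7938 and 7969 had a degradation rate in the wild-type libraries (20 and 60 min), and 6381 and 6165 in the knockout libraries. Markers of the cell types were listed as follows. Of 5 excitatory neuron markers 2, Slc17a6 and Tbr1, had a rate in all 4 libraries, and of 3 inhibitory neuron markers 2 had one in each wild-type library and 1 in each knockout library. Of 6 astrocyte markers 3 had a wild-type degradation rate in each library, and 2 and 1 had one in the 20 and 60 min knockout libraries. Of 6 oligodendrocyte lineage markers these numbers were 4, 4, 1 and 2, and of 4 markers of dividing progenitors 4, 4, 2 and 1. No microglial (of 4) or endothelial (of 3) marker was in the table, and of 7 neuronal markers 2 were, with Rbfox3 listed in all 4 libraries. The table gives no RNA level for unlisted genes, so the part of cell makeup in these listings was not tested. In such bulk cultures, fewer cells of a type and less RNA per cell cannot be told apart.

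The study compares knockout with wild type for each rate. For degradation rate, limma on log2 rates in the 39 members with values in all 4 libraries called 3 at adjusted p under 0.05, and each had a lower rate in the knockout: Klf3, Sox8 and Pou3f4. Over all 5716 genes tested the same fit called 23.1% (1321 genes), 20.5% higher (1174) and 2.57% lower (147). The members' count stands beside these shares without a test. The median log2 change was -0.01 over the 39 members and 0.65 over all genes. The change was above 0 in 19 of 39 members and in 68.1% of all genes. The difference between members and all genes was not tested, and leaving out 1 library moved the member median to between -0.24 and 0.29. When each library was centred on its median, which moved log2 changes down by 0.857 units, the member median was -0.87 and that of all genes -0.20. The split of all-gene calls then went from 1174 higher and 147 lower to 32 higher (0.56%) and 60 lower (1.05%), 1.61% in all, and 0 of 39 members were called by limma, with 11 at p under 0.05 before adjustment. With quantile normalization 6 members were called, all lower, beside 10.4% of all genes (6.3% higher and 4.13% lower).

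Klf3, a Krüppel-like repressor, had degradation rates of 0.350 and 0.364 in wild type, and in the knockout 0.0202 and 0.0743. Both knockout values lay below both wild-type values, a 9.22-fold lower rate on the log2 scale (log2 change -3.21, SE 0.709, limma adjusted p = 0.0438). Without the 60 min knockout library the log2 change was -4.14, and without the 20 min one -2.27. Sox8, a SoxE factor of the oligodendrocyte lineage and astrocytes, had 0.548 and 0.632 in wild type, and in the knockout 0.119 and 0.169. Its groups did not overlap and the rate was 4.15-fold lower (log2 change -2.05, SE 0.363, limma adjusted p = 0.0290). Pou3f4, a POU factor of neural precursors, had 0.641 and 0.886 in wild type, and in the knockout 0.221 and 0.215. The log2 change was -1.79 (SE 0.349, limma adjusted p = 0.0351). None of the 3 calls held when libraries were centred, although the log2 changes were larger there, at -4.06 for Klf3, -2.91 for Sox8 and -2.64 for Pou3f4 (limma adjusted p = 0.0517, 0.0502 and 0.0502). All 3 were called with quantile normalization (limma adjusted p = 0.0452, 0.0352 and 0.0350) and with the labelling-time block and centring together (0.0299, 0.0296 and 0.0296). Without the 60 min wild-type library limma called 0 members (9 at p under 0.05 before adjustment) and 1 gene of all. Klf3 kept its call only without the 60 min knockout library, Pou3f4 only without the 20 min wild-type library, and Sox8 in none of the 4 fits that leave a library out, where its log2 change ranged from -2.31 to -1.80.

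With labelling time as a block, which pairs the libraries of the same time, limma called 13 of the 39 members, 6 higher and 7 lower in the knockout, beside 48.0% of all genes (38.2% higher and 9.76% lower). The lower group added Id2, Neurod6, Foxp1 and Foxn2 to the 3 above, and the higher group was Sox3, Klf16, Sox2ot, Foxj3, Foxk1 and Foxo6. Id2, with the highest wild-type synthesis rate of the Id genes (17.1 and 16.0), had knockout degradation rates of 0.226 and 0.291, below both wild-type values given above (log2 change -1.37, SE 0.337, limma adjusted p = 0.0527, and 0.0285 with the block). Neurod6 had knockout rates of 0.168 and 0.251 (log2 change -1.30, limma adjusted p = 0.0700, and 0.0292 with the block). Foxn2, a forkhead factor, had 0.266 and 0.713 in wild type, and in the knockout 0.0297 and 0.164, with the widest SE of these (log2 change -2.64, SE 1.01, limma adjusted p = 0.122, and 0.0148 with the block). Leaving out the 60 min knockout library gave it -3.87, and leaving out the 20 min one gave -1.41. Foxp1, a forkhead repressor of cortical projection neurons, had 0.210 and 0.290 in wild type, and in the knockout 0.102 and 0.121.

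Of the higher group, Sox3, a SoxB progenitor factor, had degradation rates of 0.179 and 0.0903 in wild type, and in the knockout 0.511 and 0.416 (log2 change 1.86, limma adjusted p = 0.0547, and 0.0191 with the block). Klf16 had 0.147 and 0.240 in wild type, and in the knockout 0.510 and 0.725 (log2 change 1.69, limma adjusted p = 0.0553, and 0.0172 with the block). With the block and centring together, 13 members were called and all 13 were lower, beside 36.2% of all genes (13.9% higher and 22.4% lower), so the higher calls depend on the scaling. Foxp1, Sox3, Klf16 and the others of the higher group were named after their values were seen. Beside the 68.1% of all genes with a change above 0, all 3 SoxB genes (Sox1, Sox3 and Sox21) had one above 0, but with centring Sox1 was at -0.57 and Sox21 at 0.05. The 3 tested Pou genes had changes below 0, also with centring, but Pou2f1, named after its values were seen, was at -0.19 here and at 0.78 in the authors' deposited table.

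The other tested members did not pass the test for degradation rate with or without the block, though Klf15, Pou3f2, Dlx1, Klf11, Foxk2 and Foxo1 were among the lower calls with the block and centring together. Within the Fox family the 9 tested genes ranged from -2.64 (Foxn2) to 1.47 (Foxj3), with a median of 0.34, and the ciliary regulator Foxj1 had 0.69 (SE 0.441). Klf15, a glucocorticoid-induced factor of astrocytes, had degradation rates of 0.706 and 0.641 in wild type, and in the knockout 0.337 and 0.411, so its groups did not overlap although its log2 change of -0.85 missed the threshold (limma adjusted p = 0.123). Pou3f2, a POU factor of upper-layer cortical neurons, likewise had 0.474 and 0.607 in wild type, and in the knockout 0.245 and 0.370 (log2 change -0.83, limma adjusted p = 0.179). The interneuron genes Dlx1, Dlx5 and Lhx6 had changes of -0.65, 0.51 and 0.80, and with centring -1.51, -0.35 and -0.06. The SoxC genes Sox11 and Sox12 had -0.14 and -0.01, and Sox5 had 0.12. Klf15, Foxj1, Dlx1, Lhx6, Sox12 and Foxj3 were named after their values were seen.

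**Figure D3:**
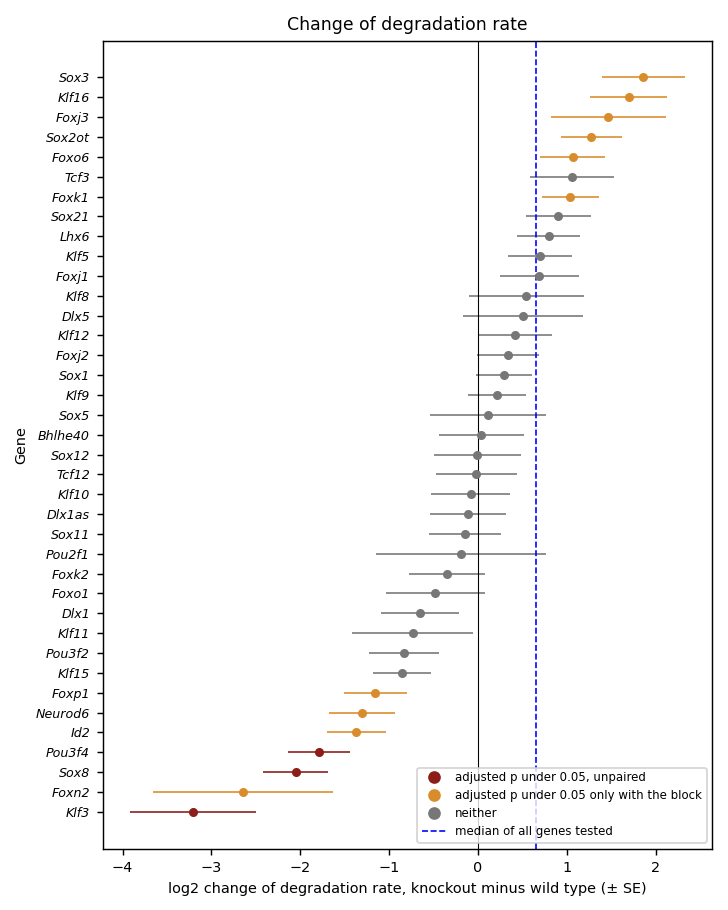
Log2 change of degradation rate, knockout minus wild type, with its standard error, for each tested member except Klf6. Red marks adjusted p under 0.05 in the unpaired fit (Klf3, Sox8, Pou3f4), orange only with the labelling-time block, and the dashed line is the median of all genes tested, 0.65. About as many members lie below 0 as above it.

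Members whose deposited degradation rate was lower in the knockout had a higher solved RNA level there in 11 of 18 cases. The solved level is a single value for the 2 knockout libraries and is not the quotient of rates in either one. It was the change of synthesis rate over the change of degradation rate between 20 and 60 min. This was done for the 34 members whose knockout synthesis rates differed by at least 0.1 log2 units. The deposited knockout degradation rate was then written as synthesis rate minus an offset, divided by that level. With 2 libraries both unknowns are solved exactly, so nothing is left to check the form. Across these members the offset rose with the level difference between genotypes (Spearman rho 0.907), and it did so over 5176 genes (0.907). The log2 change of level and that of the deposited degradation rate had a rho of -0.872 in members and -0.883 over those genes. Of the 18 members with a lower deposited rate, 11 had a level above wild type and 7 below it, the 7 by small margins. Among the 11, Foxo1 (7.81 in both genotypes) and Dlx1 (5.96 in wild type, 6.07 in the knockout) had small margins too. These quantities share the same rates, so the correlations and counts are descriptions.

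Klf3 had a level of 5.43 in wild type and a solved level of 6.26 in the knockout. Sox8 had 5.71 and 8.85, and Foxn2 had 2.75 and 3.60. Levels of Sox3 were 9.39 and 7.31, and those of Klf16 were 30.4 and 22.6. The quotients of knockout synthesis and degradation rates, as used for Fmr1 above, lay further from wild type than these solved levels. At 20 and 60 min they were 53.5 and 19.1 for Klf3, 25.8 and 20.8 for Sox8, and 35.5 and 9.39 for Foxn2. For Sox3 they were 3.385 and 2.492, and for Klf16 6.83 and 11.5. By solved level the lower-rate genes were above wild type and the higher-rate genes below it. The margins were smaller than the changes in their degradation rates. When the knockout degradation rate was recomputed as synthesis rate over this level, the log2 change was -0.85 for Klf3, -0.66 for Sox8, -0.54 for Id2, -0.40 for Foxp1, -0.30 for Foxn2, 0.53 for Sox3 and 0.34 for Klf16. The fit of these rates by limma called 0 of the 34 members (1 at p under 0.05 before adjustment) and 1 of 5176 genes (0.0193%), a lower rate, where the deposited rates of the same genes gave 2 members, Klf3 and Sox8, both lower, and 1091 genes (21.1%, of which 19.4% higher and 1.66% lower). Recomputed this way, a gene's log2 change is its synthesis change less the log2 change of its level, where the wild-type quotients are equal. Its spread between libraries is then that of the synthesis rates, for which limma called 0.0% of 5794 genes. The count therefore largely repeats the test of synthesis rates and cannot show whether the deposited changes hold. Pou3f4 could not be recomputed, since its knockout synthesis rates were nearly equal (1.85 and 1.83).

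**Figure D4:**
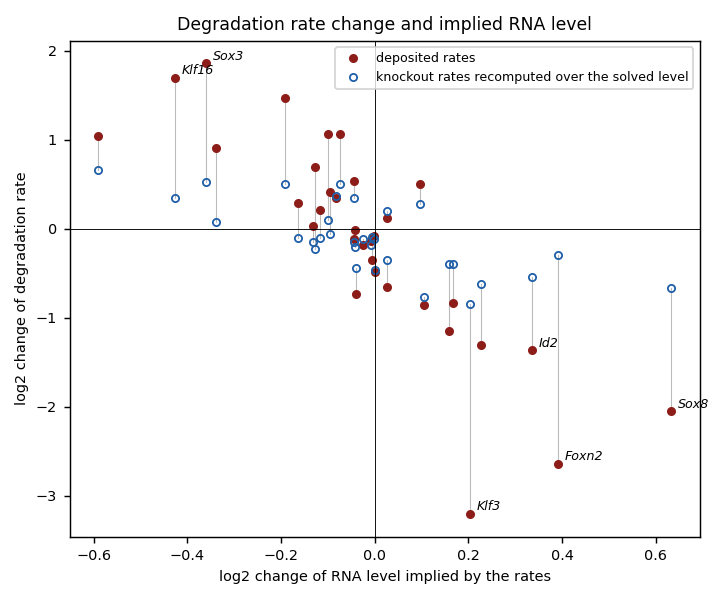
Log2 change of degradation rate against log2 change of the RNA level implied by the rates, knockout minus wild type, for the 34 members except Klf6, whose changes are off the scale. The knockout level is the solved level. Filled points are deposited rates, open points are knockout rates recomputed over the solved level, and a line joins the points of 1 gene. The genes named in the plot, which have large deposited changes, lie nearer 0 after recomputing, with Klf3 moving from -3.21 to -0.85, while small changes such as those of Sox12 and Bhlhe40 move slightly away from 0.

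Synthesis rates of the members did not pass the test between genotypes. Limma called 0 of 39 members and 0.0% of 5794 genes, while p before adjustment was under 0.05 for 0 members and 18 genes. Members had a median log2 change of -0.19, and all genes -0.03. In wild type the highest synthesis rates among members were those of Klf6, Id2, Sox11 and Neurod6. In the knockout those of Sox9, given above, exceeded the rates of Neurod6. Sox11, a SoxC factor of young neurons, had synthesis rates of 14.5 and 21.1 in wild type, and in the knockout 12.6 and 18.7, and these ranges overlapped. Neurod6 had 14.2 and 16.3 in wild type, and in the knockout 10.2 and 13.1 (log2 change -0.40, SE 0.399). Sox8, whose degradation rate fell, had synthesis rates of 3.13 and 3.61 in wild type, and in the knockout 3.07 and 3.52.

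Processing rates were given for fewer members, in part because several have no intron. Dlx5 and Foxk1 have introns but lack a processing rate at 60 min in both genotypes, as do Foxk2 and Klf11 at 20 min. In every annotated transcript of Sox1, Sox3, Sox11, Sox21, Pou3f2 and Pou3f4 there is 1 exon, as there is in the transcript used for Sox12, and none of these 7 has a processing rate. Of 276 single-exon genes in the table, 275 likewise lack one. In the 28 members tested, limma called 0 processing rates, beside 0.0% of 5082 genes, with 3 members and 783 genes at p under 0.05 before adjustment. With the block it called 7 members, 4 higher (Sox8, Foxj2, Klf16 and Neurod6) and 3 lower (Klf3, Dlx1as and Foxo1), of which Foxj2, Klf16 and Foxo1 were named after their values were seen, beside 25.6% of all genes (6.26% higher and 19.3% lower). With the block and centring it called the same 4 higher and Klf3 lower, beside 13.5% of all genes (7.14% higher and 6.4% lower).

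Sox8 had processing rates of 2.73 and 3.15 in wild type, and in the knockout 31.4 and 34.8. The 2 genotypes did not overlap, with a log2 change of 3.49 (SE 0.404). It missed the threshold in the unpaired limma fit and passed it with the block (adjusted p = 0.00752). Klf3 moved the other way, with 6.85 and 7.12 in wild type, and in the knockout 1.88 and 2.60 (log2 change -1.66, SE 0.421, limma adjusted p = 0.177, and 0.0155 with the block). Dlx1as, a transcript antisense to the interneuron gene Dlx1, had 6.48 and 4.46 in wild type, and in the knockout 3.40 and 1.93 (log2 change -1.07). Whether reads were counted by strand is not stated, so the values of Dlx1as and Dlx1 cannot be separated with certainty, and the same holds for Dlx6os1 and Dlx6. Sox2ot spans Sox2 on the same strand, so that its values could hold Sox2 reads even with stranded counting.

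Genes of the pathways that control these factors were described alongside them, from lists of Notch, BMP, Wnt and LIM cofactor genes. For degradation rate, limma called 1 of 11 Notch genes tested, 1 of 11 BMP genes, 2 of 15 Wnt genes and 1 of 4 LIM cofactor genes, and each of these was higher in the knockout, beside 20.5% of all genes called higher. With the block these were 3 higher and 2 lower, 5 and 2, 7 and 1, and 2 and 0, in the same order, beside 38.2% of all genes called higher and 9.76% called lower. Notch3, a receptor upstream of Hes genes, had degradation rates of 0.0400 and 0.0165 in wild type, and in the knockout 0.403 and 0.364 (log2 change 3.90, limma adjusted p = 0.0235). Bmp7, a ligand that induces Id genes, had 0.0936 and 0.0868 in wild type, and in the knockout 0.393 and 0.386 (log2 change 2.11, limma adjusted p = 0.0242). The remaining calls were Dvl2, a Wnt signal transducer (log2 change 2.15), Tle1, a corepressor used by Hes proteins and Tcf factors (1.82), and Ssbp4, a partner of LIM cofactors (4.64). No gene of these lists was called for synthesis rate with or without the block, or for processing rate in the unpaired fit. With the block, processing rate was called lower for 1 of 9 Notch, 2 of 10 BMP, 4 of 13 Wnt and 1 of 4 LIM cofactor genes and higher for 0, beside 19.3% of all genes called lower. None was called with centring in the unpaired fit, or over the solved level, where each list had 4 to 13 genes tested. There the log2 change was 0.39 for Notch3, 0.82 for Dvl2, 0.25 for Tle1 and 0.03 for Ssbp4, and Bmp7 had no recomputed value and was not tested.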

How the data were processed

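For 4 labelled libraries the authors deposited rates of RNA synthesis, processing and degradation in 1 table (linear values in a unit not stated, named for INSPEcT per the labels), and 3 limma tables with log2 fold changes, p-values and adjusted p-values, per the file headers. The submitters' processing notes name cutadapt, Bowtie2, TopHat2, HISAT2 and limma, and builds mm10, dm6 and sacCer3, without roles. Labelled fly RNA and yeast RNA were spiked in at 10% by weight, per the labels' protocols, and their use in scaling is not given in the sources used here. Read counts were not used, so no counting interval is given. Unused columns of per-sample values numbered 0.

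Rates above 0 in all 4 labelled libraries were compared on the log2 scale, without a pseudocount, by limma 3.58.1 (lmFit and eBayes, R 4.3.3) over all genes, with Benjamini-Hochberg adjustment and a threshold of 0.05. The members and lists were chosen with earlier results of these data known. Named genes were members called in a fit, those with the highest synthesis rate of their family or among those listed in wild type alone, those of extreme turnover, those with the 3 largest falls, the Id genes and E proteins. Others are marked as named after their values were seen. The labels do not say that libraries of the same labelling time were paired. Using time as a replicate block was a choice made here. The differences between 20 and 60 min correlated between genotypes, with Spearman rho of 0.783 (synthesis), 0.755 (processing) and 0.711 (degradation) over members. Values from the fit with this replicate block stand beside the calls that it changes.

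UTRs and sites came from GENCODE M21 (GRCm38) by symbol, taking the APPRIS principal transcript, then the longest coding sequence. The script was tested on simulated rates. Alternatives were centring, quantile normalization, a pseudocount, the 25% lowest rates left out, a threshold of 0.01, an eBayes trend, the authors' deposited tables, leaving out each library, and, added after seeing the data, the solved level and rates over 1000 left out.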

Additional observations from a re-analysis of the deposited data

Results flagged for a closer look

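Among the named genes, Bhlhe40, Sox5 and Tcf12 had changes of opposite sign at the 2 labelling times. For Bhlhe40 the log2 change of degradation rate, knockout minus wild type, was 0.15 at 20 min and -0.08 at 60 min. Sox5, a SoxD factor, had 0.36 and -0.13. Tcf12 had 0.43 and -0.47. With 1 library per genotype and time, the difference between times was not tested. Of the other tested members, Pou2f1 had 0.31 and -0.68, a wider gap than any of these, Klf10 had -0.31 and 0.15, and Sox12 had -0.05 and 0.03.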

How the results depend on the processing

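The count of members called for degradation rate was 3 in the unpaired fit. It was 13 with the replicate block, 13 with the block and centring, 0 with centring, 6 with quantile normalization, 6 with an eBayes trend (1604 of 5716 genes called in all), 7 with low rates left out (1375 of 4287), 9 with the pseudocount (1894 of 5716), 8 of 41 in the authors' deposited table (2 higher and 6 lower, beside 36.3% of all genes), 0 at a threshold of 0.01 and 0 over the solved level. When 1 library was left out, the remaining library of that genotype was assumed to vary like the other genotype. Klf6 was then among the calls wherever the 60 min wild-type library, with its extreme rate, was kept. The member median of -0.01 became -0.87 with centring, with or without the block, and -0.68 with quantile normalization. It was 0.11 in the authors' deposited table, 0.013 with rates over 1000 left out and -0.24 to 0.29 without 1 library. Its sign thus changes with single libraries and also with all libraries kept. For synthesis the median of -0.19 became -0.11 in the authors' deposited table, -0.055 with quantile normalization and -0.41 to 0.068 without 1 library, with 0 to 1 members called (Klf6). For processing it went from -0.23 to 0.12 with centring, with or without the block, 0.17 with quantile normalization and -0.46 to -0.14 without 1 library. There 7 members were called with the block and 5 with the block and centring. In fits without 1 library only Sox8 and Klf6, whose 60 min wild-type processing rate was 131800000, were called. In the authors' deposited table for degradation, Hey1, named after its values were seen, had a log2 change of -4.07 (limma adjusted p = 0.00637), with a rate in 1 knockout library. Depth is unknown, and each rate rests on 1 library per time.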
